A study of Homo sapiens with 3 samples.

Results

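The peaks described here are those at the loci of NR2F2 and NR2F1, paralogous genes of the nuclear receptor family, in chromatin immunoprecipitation sequencing (ChIP-seq) of ARID1B in HEK293FRT cells. The peaks were chosen by position. For NR2F2 they were all peaks of either replicate in chr15:95500000-96800000, and for NR2F1 all peaks within 500 kb of the gene body on chromosome 5. The NR2F2 interval was set with the deposited peak positions already known, so the number of peaks at NR2F2 and their places are given as a description, with no test. In all, 22 of the 3612 peaks of both lists together met this rule. The NR2F2 interval held 9 peaks of replicate 1 and 8 of replicate 2, and the NR2F1 interval held 3 and 2.

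The series comprised 2 ARID1B ChIP replicates and 1 input of HEK293FRT, a line derived from the embryonic kidney cells HEK293, with no treatment and no genotype given in the labels. The lists held 1792 and 1820 peaks, each with a whole-number score given by the authors whose scale is not stated in the sources used here, with medians of 74.0 and 75.0. No read counts were in the lists, so the depth is unknown, and nothing in the labels tells whether replicates came from separate cultures, so agreement between them may be technical. The input was not analysed here, and the number of copies of each chromosome in these cells was not measured. All positions are on hg38.

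ARID1B carries an AT-rich interaction domain and belongs to the BAF (SWI/SNF) complexes, which use ATP to slide and evict nucleosomes and are known to act at enhancers away from promoters. NR2F1 (COUP-TFI) and NR2F2 (COUP-TFII) are orphan nuclear receptors that bind repeats of the element AGGTCA, often as repressors. NR2F1 is known for patterning the cerebral cortex and the optic nerve, and NR2F2 for vein identity, the heart atria and the mesenchyme of many organs. Developmental regulators of this kind often lie in gene-poor stretches in which distant elements control them.

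Neither gene had an ARID1B peak on its body or at its start in either replicate. NR2F2 (chr15:96326046-96340263, plus strand) was the single protein-coding gene of its 1300 kb interval, which also held 15 long non-coding RNA (lncRNA) genes. The nearest protein-coding neighbours were MCTP2, 1842 kb before it, and ARRDC4, 1620 kb after it. NR2F1 (chr5:93583222-93594611, plus strand) had its nearest protein-coding neighbour before it, ARRDC3, at 2200 kb, but was less isolated on its other side. The NR2F1 interval of 1011 kb held 3 protein-coding genes, where that of NR2F2 held 1, and 5 lncRNA genes. Both receptor genes are overlapped at their starts by an antisense lncRNA gene, NR2F2-AS1 and NR2F1-AS1.

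Peaks of both replicates that overlapped by at least 1 bp were taken as 1 shared region. The NR2F2 interval held 7 shared regions and the NR2F1 interval 2, and each consisted of exactly 1 peak of each replicate. Sequence was at hand for the RefSeq promoter windows of lncRNA genes that start within or beside these regions. Each window runs from 250 bases before the annotated gene start to 50 bases after it (GRCh38.p14) and is printed 5′ to 3′ along its gene, with matches to any of 9 searched motifs in capitals. The first lay whole inside one of the highest-scoring peaks of the NR2F2 interval, and the others lay outside the peaks. The windows shown are all those that a shared region of either interval overlapped or lay within 1000 bp of. They are LOC105370998 at chr15:96053327-96053626 (minus strand), LOC105370997 at chr15:96171333-96171632 (plus strand) and LOC124901027 at chr5:93597052-93597351 (plus strand).
LOC105370998: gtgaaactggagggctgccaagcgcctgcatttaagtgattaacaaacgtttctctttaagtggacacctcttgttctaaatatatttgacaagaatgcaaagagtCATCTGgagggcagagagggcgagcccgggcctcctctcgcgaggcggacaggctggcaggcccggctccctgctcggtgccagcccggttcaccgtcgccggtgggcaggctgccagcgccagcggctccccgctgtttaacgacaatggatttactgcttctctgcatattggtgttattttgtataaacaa
LOC105370997: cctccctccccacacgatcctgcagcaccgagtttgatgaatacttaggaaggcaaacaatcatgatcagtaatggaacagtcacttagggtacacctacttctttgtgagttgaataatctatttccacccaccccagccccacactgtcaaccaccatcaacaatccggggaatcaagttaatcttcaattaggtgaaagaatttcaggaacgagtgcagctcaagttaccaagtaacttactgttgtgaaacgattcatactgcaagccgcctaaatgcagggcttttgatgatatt
LOC124901027: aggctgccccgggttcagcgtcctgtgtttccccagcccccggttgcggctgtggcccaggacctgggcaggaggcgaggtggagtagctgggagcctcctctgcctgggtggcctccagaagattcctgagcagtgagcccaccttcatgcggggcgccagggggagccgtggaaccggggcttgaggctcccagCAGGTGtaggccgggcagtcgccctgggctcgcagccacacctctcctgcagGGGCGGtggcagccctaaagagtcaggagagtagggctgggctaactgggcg

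All 300 bases of the LOC105370998 window lay inside the peak of each replicate. The annotated start of that gene, at base 96053376 of chromosome 15, was 19.5 bp from the centre of the replicate 1 peak and 31.5 bp from that of the replicate 2 peak. LOC105370998 is read from the minus strand, away from NR2F2. Among the 9 shared regions of both intervals this was the single one that overlapped a RefSeq promoter window, and 10.1% of the 1313 shared regions of the whole data set did so. The LOC105370997 window began 50 bp past the replicate 1 peak and 72 bp past the replicate 2 peak, and the gene start itself lay 300 and 322 bp from those peaks. The LOC124901027 window ended 934 and 797 bp before the peaks, and the replicate 2 peak reached into the annotated end of that gene.

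The windows differed in base composition and held few of the motifs. GC content was 54.7% in the LOC105370998 window, 44.0% in that of LOC105370997 and 69.0% in that of LOC124901027, beside a median of 58.7% over 35116 RefSeq promoter windows. The motifs were searched on both strands. An E-box (CANNTG), the core bound by basic helix-loop-helix factors, was in the LOC105370998 and LOC124901027 windows and in 68.7% of all windows. A GC box (GGGCGG), bound by SP factors, was in the LOC124901027 window and in 45.0% of all windows. The nuclear receptor element AGGTCA, which 13.8% of all windows held, was in none of the 3, and the same was true of its direct repeat with 1 base between (0.0228% of all windows), which contains it. The AP-1 motif TGANTCA (7.71% of all windows), the TEAD motif GGAATG (14.0%), the SOX and TCF type motif AACAAAG (5.20%), the GATA motif AGATAA (10.3%) and the CTCF core (2.41%) were in none of them either. A match is a run of letters and not a measured binding site. Only the LOC105370998 window lay inside peaks, and the rest of the sequence of those peaks was not used here. The LOC105370997 and LOC124901027 windows held no base of a peak, so no peak sequence was searched at their regions.

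The highest-scoring region of both intervals lay farthest from NR2F2. At chr15:95556823-95557385 the score was 484 in replicate 1 and 512 in replicate 2, which placed it at rank 18 of 1792 and rank 20 of 1820. It lay 769 kb before the NR2F2 gene start and outside every annotated gene, with LOC105370995, a lncRNA gene, 6982 bp away. NR2F2 was still its nearest protein-coding gene.

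The region over the LOC105370998 start, at chr15:96053017-96053696, lay 272 kb before NR2F2. Its score was 243 in replicate 1 and 478 in replicate 2, or rank 125 and rank 23. The replicate 2 score was 1.97-fold the replicate 1 score, a ratio above that of 89.7% of the 1305 shared peak pairs in which each peak overlapped a single peak of the other list. It was also the widest region of both intervals, with peaks of 680 and 640 bp against list medians of 290 and 300 bp. A second lncRNA gene, LOC112268156, spans it.

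The shared region nearest to NR2F2 lay 155 kb before the gene start, at chr15:96170985-96171283. It scored 101 in replicate 1 and 81 in replicate 2, higher than 66.9% and 54.3% of the peaks of the lists. It lay inside NR2F2-AS1, the antisense lncRNA gene that begins at NR2F2, and inside LOC112268156. This is the region beside the LOC105370997 window printed above.

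Beyond NR2F2 a close pair of regions lay 353 and 354 kb after the gene end, inside the lncRNA gene LOC105371002. The first, at chr15:96692923-96693181, scored 83 in replicate 1 and 81 in replicate 2. The second, at chr15:96693963-96694455, scored 117 and 86. Only 782 bp separated them, and both replicates called them as separate peaks. Of all 1313 shared regions, 3.50% had another shared region within 1000 bp, and 2 of the 9 described here did.

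The remaining shared regions of NR2F2 were far from the gene and of low score. One at chr15:95647697-95648194, 678 kb before the gene start, scored 60 and 69. One at chr15:95825733-95826003, just over 500 kb before it, scored 21 and 59, which left it above 1.84% of the replicate 1 list and 34.6% of the replicate 2 list. Its 2.81-fold higher score in replicate 2 exceeded the ratio of 97.2% of all shared pairs. Neither region lay in an annotated gene.

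Along the chromosome the NR2F2 regions were unevenly placed. From the first to the last, the gaps were 90.3, 178, 227, 117, 522 and 0.782 kb, and the gap of 522 kb held the NR2F2 gene. The median gap between neighbouring shared regions over all chromosomes was 821 kb. Because the interval was set with the peaks known, its shorter gaps are a description and no measure of unusual density. In this interval, 5 regions lay before the gene start and 2 after the gene end. The interval reaches 826 kb before the gene but only 460 kb after it, so these counts cover unequal lengths.

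**Figure D1:**
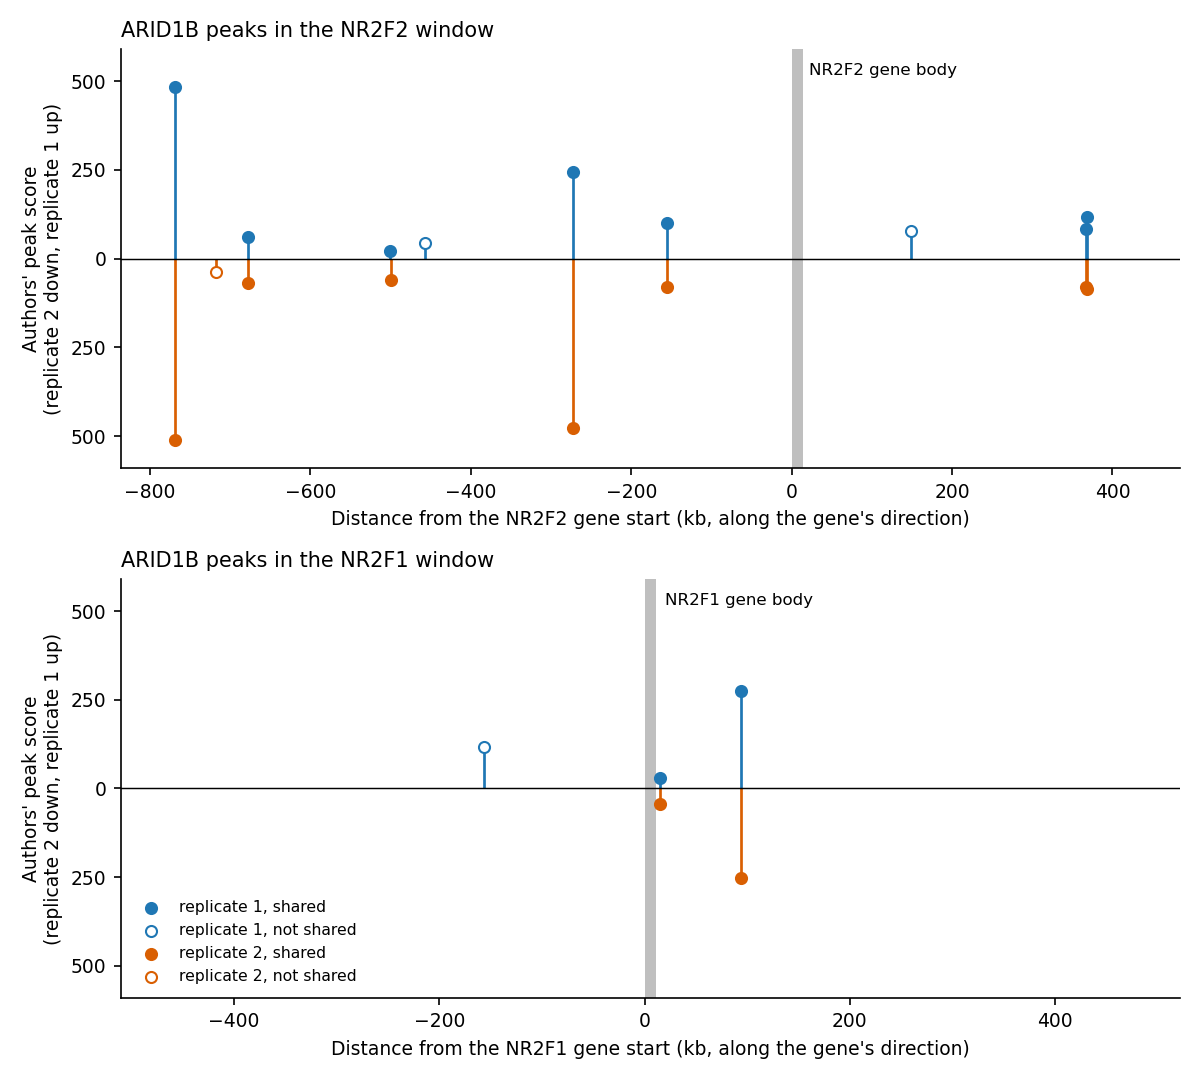
Authors' score of every ARID1B peak in the NR2F2 interval (upper panel) and the NR2F1 interval (lower panel) against distance from the gene start in kb; replicate 1 points up, replicate 2 points down, filled points are shared peaks and the grey band is the gene body. The tallest NR2F2 peaks stand 769 and 272 kb before the gene and no peak lies on either gene body.

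NR2F1 had fewer shared regions, and both lay after the gene end. The nearer one, at chr5:93598148-93598607, began 3.54 kb past the gene end and 14.9 kb from the gene start. Its score was 30 in replicate 1 and 44 in replicate 2, above 5.86% and 20.3% of the lists, so that it was among the weakest peaks called. The other, at chr5:93677279-93677689, scored 274 and 251 (rank 84 and rank 120) and lay 82.7 kb past NR2F1. NR2F1 was not its nearest protein-coding gene, so this region is described as part of the NR2F1 interval and not assigned to NR2F1. The regions were 78.7 kb apart. No peak lay on POU5F2, a POU-domain transcription factor gene.

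The intervals differ in how far they extend, so the paralogues were also compared at equal distances. Within 250 kb of the gene body NR2F2 had 1 shared region and NR2F1 had 2. Within 500 kb the numbers were 4 and 2, and within 1000 kb they were 7 and 5. The NR2F2 count within 500 kb leaves out a region 500043 bp from the gene, so it depends on the exact limit. The nearest shared region was 155 kb from NR2F2 and 3.54 kb from NR2F1. NR2F1 thus had the nearer regions and NR2F2 the larger number at distances of 500 kb and above, which is a comparison of a single count with a single count and was not tested.

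For scale, 37.2% of 19866 protein-coding genes had at least 1 shared region within 500 kb of the gene body. At least 4, as at NR2F2, were found at 1.59% of these genes, and at least 2, as at NR2F1, at 13.4%. The order of the paralogues turned at a shorter distance. Within 250 kb, 23.3% of genes had at least the 1 region of NR2F2 and 5.53% at least the 2 of NR2F1, and within 1000 kb 0.715% had at least the 7 of NR2F2 and 2.72% at least the 5 of NR2F1. The gene with the most had 15 within 500 kb. NR2F2 was picked with this density in view, so its place in the distribution is a description. Its count of 4 leaves out the region 500043 bp away, just past the limit.

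**Figure D2:**
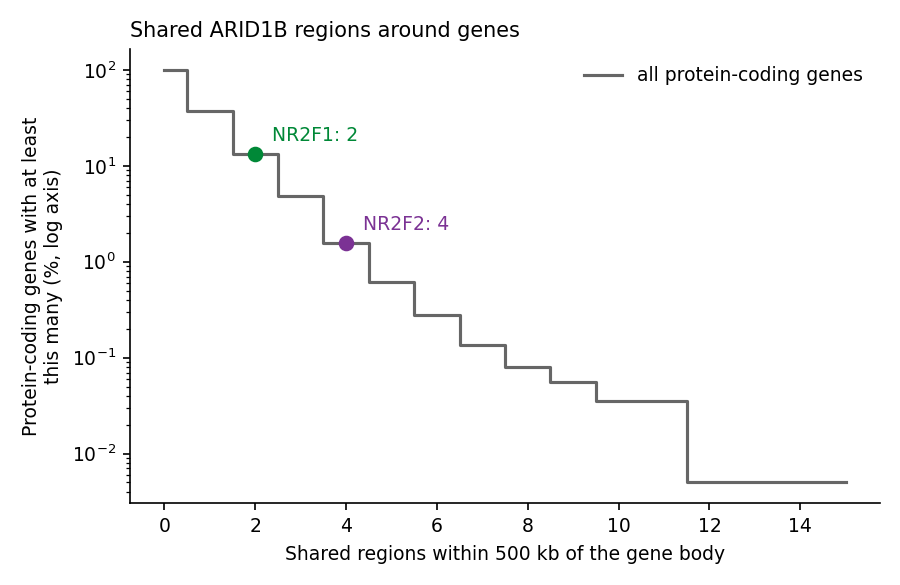
Percent of protein-coding genes (log axis) with at least the number of shared ARID1B regions on the horizontal axis within 500 kb of the gene body. NR2F2 stands at 4 regions, where the line is at 1.59%, and NR2F1 at 2, where it is at 13.4%.

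Replicate agreement in the intervals was then read beside that of the whole lists. At NR2F2, 7 of 9 peaks were shared in replicate 1 (77.8%, with an exact 95% Clopper-Pearson interval from 40.0 to 97.2). In replicate 2 the share was 7 of 8 (87.5%, interval 47.3 to 99.7). At NR2F1 the shares were 2 of 3 (66.7%, 9.43 to 99.2) and 2 of 2 (100%, 15.8 to 100). Over the whole lists 73.5% of replicate 1 peaks and 72.4% of replicate 2 peaks were shared, and these values lay inside all 4 intervals. The 95% intervals cover counting error only. With so few peaks they are wide and could hardly leave these values out, so they say little about agreement at the loci. The same shared pairs also enter the shares of both replicates.

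Shared peaks overlap by definition, so how closely they coincided was read beside all shared pairs. At NR2F1 both overlaps were below the median of all pairs. The centres of both peaks of a region were 9.5 to 36.0 bp apart at NR2F2 (median 18.0) and 12.0 and 62.5 bp apart at NR2F1, beside a median of 24.0 bp over the 1305 pairs. The overlap covered 79.7 to 94.1% of the joint length at NR2F2 and 67.6 and 78.1% at NR2F1, where the median over all pairs was 79.7%. The least overlap was at the region 3.54 kb past NR2F1, whose replicate 1 peak of 311 bp lay wholly inside the replicate 2 peak of 460 bp.

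**Figure D3:**
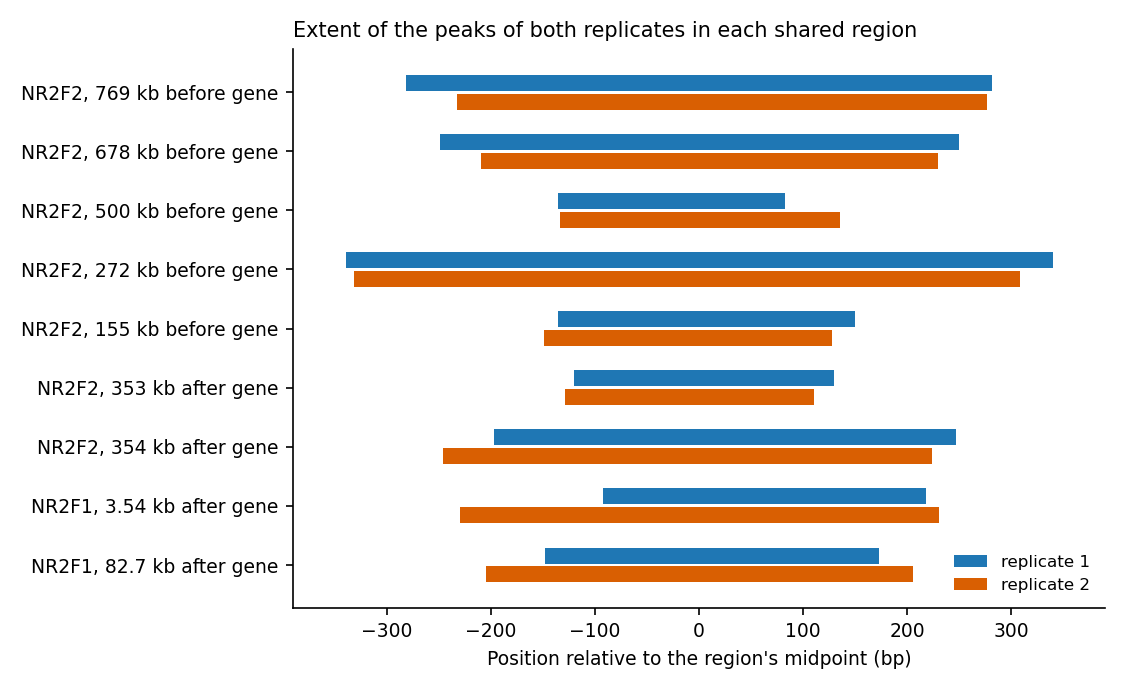
Extent in bp of the replicate 1 and replicate 2 peaks around the midpoint of each of the 9 shared regions, labelled by gene and distance. The widest is the region 272 kb before NR2F2, with peaks of 680 and 640 bp, and the largest offset is at the region 3.54 kb after NR2F1.

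Scores moved in both directions between the replicates. At NR2F2 the score was higher in replicate 2 in 4 of 7 regions, and the ratio of replicate 2 to replicate 1 ran from 0.735 to 2.81 with a median of 1.06. At NR2F1 the ratios were 1.47 and 0.916. Over all 1305 pairs the median ratio was 1.02 and 50.8% were higher in replicate 2. In both replicates 5 of the 7 NR2F2 regions and 1 of the 2 NR2F1 regions scored at or above the median of the list, as did 49.4% of all pairs.

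**Figure D4:**
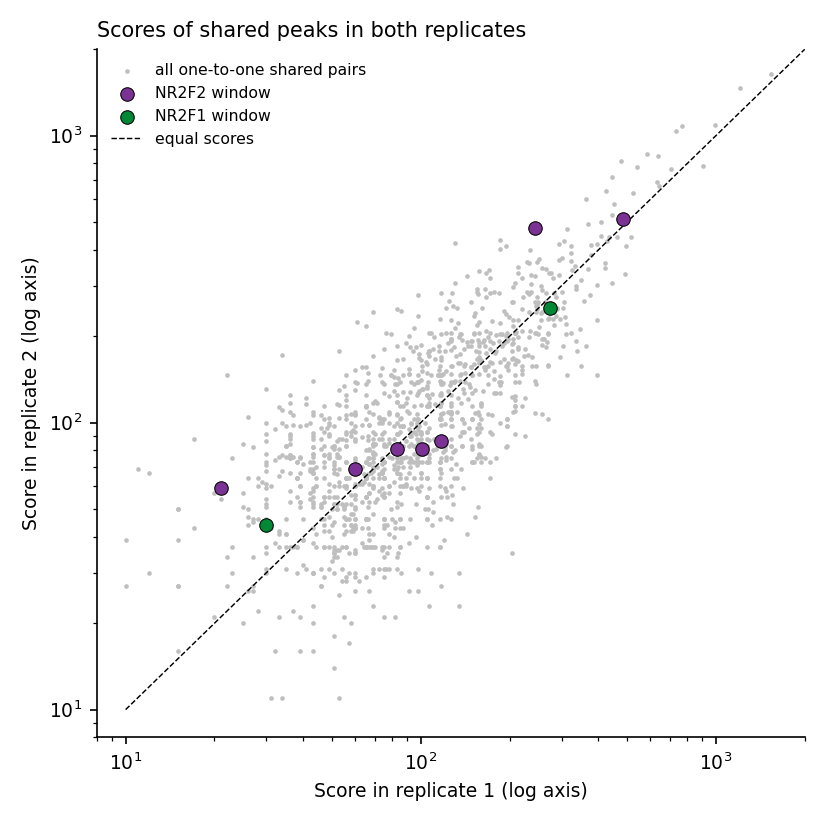
Score in replicate 2 against score in replicate 1 (both log axes) for 1305 shared peak pairs in grey, with the 7 NR2F2 and 2 NR2F1 regions in colour and a dashed line at equal scores. The region at 243 and 478 and the one at 21 and 59 stand above the line.

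Of the 22 peaks, 4 were found in 1 replicate only. At NR2F2 these were replicate 1 peaks at chr15:95868629-95868847 (score 44) and chr15:96474278-96474546 (score 78) and a replicate 2 peak at chr15:95608450-95608684 (score 37). The peak at 96474278, 134 kb after the gene end, was the nearest to NR2F2 of all peaks in either list. At NR2F1 a replicate 1 peak at chr5:93426628-93426875 scored 117 and lay inside NR2F1-AS1, 156 kb before the gene start. It was rank 9 of the 475 replicate 1 peaks without a partner, whose highest score was 138 and whose median was 49.0. Each antisense lncRNA gene held 1 peak position near 155 kb before its receptor gene, shared by the replicates at NR2F2-AS1 and called in replicate 1 alone at NR2F1-AS1. This likeness was seen after the data were known and was not tested.

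The edges of the intervals did not divide dense groups of peaks. The shared peak just inside the lower edge of the NR2F2 interval was the one 769 kb before the gene, and the first peak outside that edge was 1914 kb before it (78 and 88). Above the upper edge the next was 1620 kb after the gene (191 and 190), where the last inside was at 354 kb. For NR2F1 the first peaks outside were 781 kb before the gene (66 and 43) and 875 kb after it (101 and 73), and the nearest to the edges inside were those at 156 kb before and 82.7 kb after.

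The nuclear receptor genes as a family were read in the same way. NR2F2 and NR2F1, which were picked with the peaks known, are part of this list and have regions, so they add to its share. Of the 48 human members, 29 (60.4%) had at least 1 shared region within 500 kb, beside 37.2% of all protein-coding genes. The nuclear receptor genes had a median length of 50.9 kb and all protein-coding genes one of 24.5 kb, and the part of gene length in this difference was not tested. The 29 genes were reached by 45 regions, of which 10 counted for more than 1 receptor gene because several receptor genes are neighbours. NR2F6, the third COUP-TF gene, had none within 500 kb, and its nearest shared region was 947 kb away (scores 115 and 178).

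THRB, which encodes a thyroid hormone receptor, had the most, with 5, and a region inside the gene. RARB, a retinoic acid receptor gene, and NR1D2, which encodes the clock repressor REV-ERB beta, lie near it on chromosome 3 and had 4 each. NR2F2 also had 4, without the region 500043 bp away. NR3C1, the glucocorticoid receptor gene, had 3, the nearest 31.6 kb away (70 and 78). THRA and NR1D1, neighbours on chromosome 17, had 3 each. A shared region lay inside 5 of the 48 receptor genes and inside 2.80% of all protein-coding genes, which are shorter by median. The 5 were THRB (148 and 192), RARB (30 and 30), RORA (127 and 46), ESRRB (322 and 365) and NR6A1 (83 and 75). Among receptor genes with no region inside, the nearest one was that of NR2F1 at 3.54 kb. RXRA, whose product pairs with many other receptors, had 1 region, 455 kb away (43 and 43). The remaining 19 genes had none within 500 kb, among them PGR and PPARG.

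**Figure D5:**
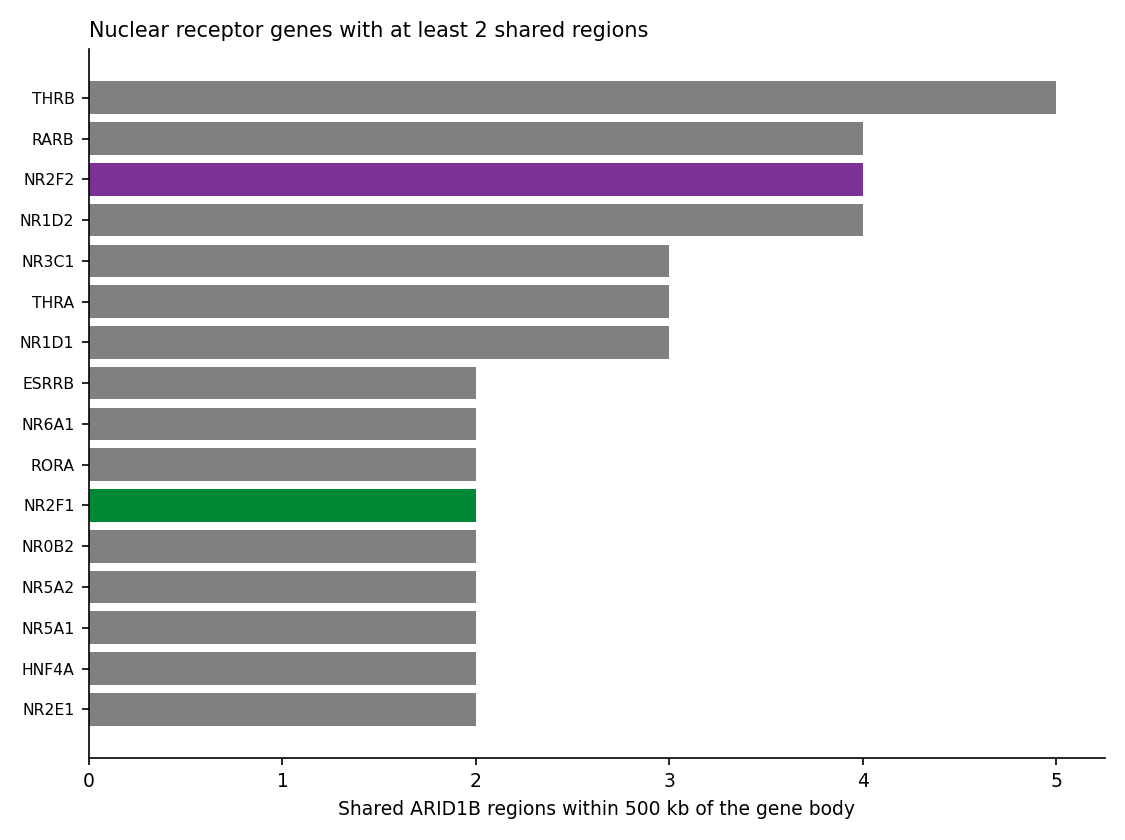
Number of shared ARID1B regions within 500 kb of the gene body for the nuclear receptor genes with at least 2, NR2F2 in purple and NR2F1 in green. THRB stands at 5, NR2F2 at 4 with RARB and NR1D2, and NR2F1 at 2.

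Genes of cofactors known to work with COUP-TFs or other nuclear receptors formed the last group. Of 16 such genes 8 (50%) had a shared region within 500 kb, beside the 37.2% of all protein-coding genes given above. A shared region lay inside 3 of the 16, beside 2.80% of all protein-coding genes. The part of gene length in these differences was not tested. ZFPM2, which encodes the COUP-TF partner FOG2, had 3, with one inside the gene (116 and 103). BCL11B, a zinc-finger repressor gene whose product binds COUP-TFs, also had 3, with one inside (199 and 233). NCOA1, a coactivator gene, had 1 inside its body (66 and 140). BCL11A, the relative of BCL11B, had none, and its nearest shared region was 1067 kb away. ZFPM1, the relative of ZFPM2, had none either, with the nearest 1028 kb away. The corepressor gene NCOR1 had none.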

How the data were processed

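ARID1B was profiled by ChIP-seq in 2 replicates of HEK293FRT cells, with 1 input. Per the labels' protocols, cells were fixed in 1% formaldehyde for 10 minutes, and libraries had 15 PCR cycles and inserts selected at 275 to 700 bp, which limits how finely a peak locates ARID1B. The tools named in the submitters' processing notes are MACS2 2.1.2, Bowtie2 2.3.4.1 and bcl2fastq 2.20.0.422, with the build hg38. The sources used here give no settings, peak threshold, duplicate handling or use of the input. The authors deposited 1 peak list per replicate, with a score per peak of unstated scale that served to rank and describe peaks of that list. Ratios of scores between lists are descriptions.

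Starts were converted to count from 1. Genes came from a RefSeq table (GRCh38.p14) of 59792 genes, of which 58961 on the main chromosomes were kept. Distances are gaps between region and gene body. Promoter windows, gene direction and sequences came from RefSeq (GRCh38.p14), and 9 motifs were searched. Pairing and distances were tested on simulated data. The peaks, gene lists and intervals were chosen with earlier results of these data known. Every peak of both intervals is given, with genes that hold it or lie nearest except where a gene is not reported here, and receptor or cofactor genes were named mainly for having a region; those without one were picked with their values in view. Alternatives were 50% reciprocal overlap, centres within 200 bp, peaks at or above the median score, distances of 250, 500 and 1000 kb, and each replicate alone. Python 3.11.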

Additional observations from a re-analysis of the deposited data

How the results depend on the processing

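No paired analysis was possible because the replicates belong to a single group and the results come from no test. Of 45 alternative values for 9 results, 36 stayed within the tolerance and 9 moved. The tolerance was 1.5 times for a count, the 95% interval of the reported value for a share, and the same nearest region for a distance, so with few peaks it was wide. The region counts of both intervals were the same with 50% reciprocal overlap and with centres within 200 bp. These settings could not move them, because every pair overlapped over at least 67.6% of its joint length with centres at most 62.5 bp apart. The shares and nearest distances computed at these settings were fixed in the same way, so such values among the 36 say nothing about stability. Other counts were not recomputed that way. With 500 or 250 kb on each side the NR2F2 count was 4 or 1, and with 1000 kb the NR2F1 count was 5. Among peaks at or above the median score the NR2F1 count was 1, and its nearest region was then 82.7 kb away, because the region at 3.54 kb scores below the medians. The share of NR2F2 peaks of replicate 2 that were shared was 100% among peaks at or above the median score and 100% within 500 kb, where fewer peaks remain. Within 250 kb, 17 nuclear receptor genes had a shared region (35.4%, beside 23.3% of protein-coding genes), and within 1000 kb 33 did (68.8%, beside 57.5%). Among peaks at or above the median score 20 did within 500 kb, but the share of all protein-coding genes was not computed at that setting. Using a single replicate's list gave 8 to 9 regions at NR2F2 and 2 to 3 at NR2F1. The nearest distances were then 134 to 155 kb and 3.54 to 3.67 kb. With such a list 30 to 31 nuclear receptor genes had a region, and here too the share of all protein-coding genes was not computed. With 22 peaks, 2 replicates and no read counts, small differences between the paralogues were not detectable.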

Other observations

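Beyond the interval used for NR2F1, 3 more shared regions lay within 1000 kb of the gene. At chr5:92641293-92641877, 941 kb before the gene and inside the lncRNA gene LOC105379082, the scores were 152 and 160. At chr5:92802025-92802315, 781 kb before it, they were 66 and 43, and at chr5:94469849-94470196, 875 kb after it and inside KIAA0825, 101 and 73. No further shared region lay within 1000 kb of NR2F2.

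Some protein-coding genes around the paralogues are themselves paralogous, which was looked at after the data were seen. NR2F2 lies between MCTP2, which encodes a C2-domain membrane protein, and ARRDC4, an alpha-arrestin gene. NR2F1 has ARRDC3 2200 kb before it and MCTP1 1109 kb after it, with other genes between, so the relatives are on opposite sides. On chromosome 15 a shared region overlapped each flanking gene, and over the whole data set 2.80% of protein-coding genes held one. At ARRDC4, whose annotated start is base 97960703, the replicate 1 peak at chr15:97960399-97960711 (score 191) reached the start, and the replicate 2 peak at chr15:97960400-97960699 (score 190) ended just before it. The region of MCTP2 lay inside the gene (78 and 88), 179884 bp past its lowest base. MCTP2, at chr15:94231366-94483952, is far longer than the median protein-coding gene of 24.5 kb. On chromosome 5 neither gene had one, and the nearest shared region was 538 kb from ARRDC3 (152 and 73) and 233 kb from MCTP1 (101 and 73). These are counts at 4 genes, and the difference between the chromosomes was not tested.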
